A study of Bos taurus with 48 samples.

Results

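Liver gene expression 7 d before calving was compared between B5F75 cows and B4F75 cows, which differed in body condition score (BCS) and were both fed below requirements. B5F75 cows had a BCS of 5 and B4F75 cows a BCS of 4, on a 10-point scale. Both had been offered 75% of their estimated energy requirements through their pasture allowance in the 3 wk before calving. The members were the 12 arrays, of 48 in the series, on which both channels held liver taken at day -7. Besides B5F75 and B4F75, these arrays held the 2 overfed treatments, B5F125 and B4F125, which had the same condition scores and were offered 125% of requirements.

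All were grazing dairy cows. Per the labels, cows had been allocated at random to a BCS category and an intake well before calving, and were managed in late lactation to reach the BCS. Ages and breeds were mixed within treatments (the labels call the animals Holstein, whereas the methods describe mixed breeding). Each tissue sample was a percutaneous biopsy of whole liver. On an array, RNA from 1 cow labelled with the dye Cy5 competed with RNA from another labelled with Cy3. Each pair of treatments met on 2 arrays with the dyes swapped, so that 24 of the 32 cows, 6 per treatment, were each used once. B5F75 and B4F75 met directly on 2 arrays, and met indirectly through B4F125 on 4 arrays and through B5F125 on 4 more. In the fit, the direct arrays carried 1/2 of the weight and each indirect route 1/4.

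The liver of a cow close to calving turns to exporting glucose, lipoproteins and acute phase proteins while fatty acids reach it from adipose tissue, and its energy supply bears on how much fat it oxidizes, stores or makes. Several of the genes below act outside that lipid programme. Metallothioneins bind zinc and copper and are induced by metals, glucocorticoids and cytokines, hepcidin (HAMP) is the hormone by which the liver limits iron entry into plasma, and ABCG5 with ABCG8 forms the transporter that moves sterols from the hepatocyte into bile.

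Few genes passed the call between B5F75 and B4F75 cows. Of 14346 genes tested, 47 passed the call used here (p of at most 0.01 in limma and a fold change of at least 1.5, that is, 0.328% of all genes), of which 32 were higher (0.223%) and 15 lower (0.105%) in B5F75 than in B4F75. The brightest of the genes higher in B5F75 were MT1A, IL36A and MMP7, and the brightest of those lower were HAMP, ABCG5 and ABCG8. None passed Benjamini-Hochberg adjustment in limma: the adjusted p was 1 for every gene in this comparison, and 357 genes had an unadjusted p under 0.05. In limma, 0.383% of genes had an unadjusted p of at most 0.01. With no difference at all, that threshold would pass a larger share. The values below therefore describe the 12 arrays, and single genes cannot be told from chance by this test. In biopsies of whole liver, fewer cells of a type and less RNA per cell cannot be told apart.

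Values are log2 ratios after each array was centred on its median, so a difference of 1 is a 2-fold change. Signal is the brightness of a gene's spots in scanner units, recovered from the deposited ratios. Medians of the 12 arrays before centring were 0.152 to 0.459, blank spots 9.65 to 19.36%, and 33.6% of values had a recovered weaker channel of 10 units or less. The 2 arrays with both groups had the narrowest spread of ratios (median absolute deviations of 0.297 and 0.265, against up to 0.443 on the others). Which dye was on top of a deposited ratio was not stated. Every sign below rests on reading it as Cy5 over Cy3 and would turn if it were the reverse. With that reading the lipogenic genes were higher in overfed than in restricted cows with BCS 5 (THRSP by 3.01 ± 0.71, SCD by 1.11 ± 0.36, FASN by 0.72 ± 0.20), whereas in cows with BCS 4 the values were 1.15 ± 0.71, 0.74 ± 0.36 and 0.12 ± 0.20, nearer their error. Read the same way, on arrays that paired day 7 with day -7 and do not enter this comparison, HP, SAA3 and PC were lower at day 7 on 3 of 4 arrays each and IGF1 higher on 4 of 4, opposite to what is known around calving. The direction is called likely only on the feeding values.

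MT1A, a metallothionein, was among the brightest genes called, with a signal of 6080 units. On the arrays with both groups the log2 ratio of B5F75 over B4F75 was 1.18 and 4.02. B5F75 cows were above their overfed partners by 1.88 and 2.13 (B4F125) and by 4.52 and 2.48 (B5F125), whereas B4F75 cows differed from their overfed partners by 3.44 and -0.39 (B4F125) and by 2.18 and 1.58 (B5F125). All 6 arrays of B5F75 were thus above 0, as were 3 of the 4 arrays of B4F75 with overfed cows, and the arrays of the restricted groups with overfed cows overlapped. The fitted difference was 1.82 ± 0.55 (log2 ± SE), or 3.54-fold (adjusted p = 1, limma). The 3 routes gave 2.60 (direct), 0.48 (through B4F125) and 1.62 (through B5F125), and the 10 arrays without the direct ones gave 1.05. With 1 array left out the difference was 1.44 to 2.21 and the call was lost in 7 of 12 fits: without either direct array (1.62 and 1.44), either array of B5F75 with B5F125 (1.81 and 1.75), the first of B5F75 with B4F125 (1.82), the second of B4F75 with B4F125 (1.75) or the first of B5F125 with B4F75 (1.74). Of the related metallothioneins, which share sequence and may share probe signal, neither MT2A (0.94 ± 0.47) nor MT1E (0.64 ± 0.41) was called, although their brighter probes were at 1.40 and 1.36 for MT2A and at 1.36 and 1.45 for MT1E. MT3 was at -0.15.

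IL36A encodes a cytokine of the interleukin-1 family and had a signal of 490 units. The direct arrays gave 0.72 and 3.34. B5F75 cows were above overfed cows by 3.56 and 1.78 (B4F125) and by 3.88 and 3.10 (B5F125), and B4F75 cows were at 3.17 and -0.46 (B4F125) and at 1.82 and 1.19 (B5F125). The order of the arrays was close to that of MT1A, with 1 array of B4F75 as high as those of B5F75 and another below 0. The difference was 1.84 ± 0.54, or 3.58-fold. Leaving out the same 7 arrays as for MT1A removed the call, with differences of 1.57 to 2.25 over the 12 fits.

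MMP7, a matrix metalloproteinase of epithelia (matrilysin), was the steadiest of the bright genes. The direct arrays gave 1.09 and 1.25. B5F75 cows were above overfed cows on all 4 arrays, by 1.40, 1.72, 0.50 and 0.63, whereas B4F75 cows were at -1.25, 0.98, -0.45 and -0.15. The groups overlapped through 1 array, of B4F75 with B4F125 (0.98). The difference was 1.23 ± 0.29, or 2.34-fold, both probes agreed in sign (1.05 and 1.40), and the gene was called in 12 of 12 fits with an array left out.

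**Figure D1:**
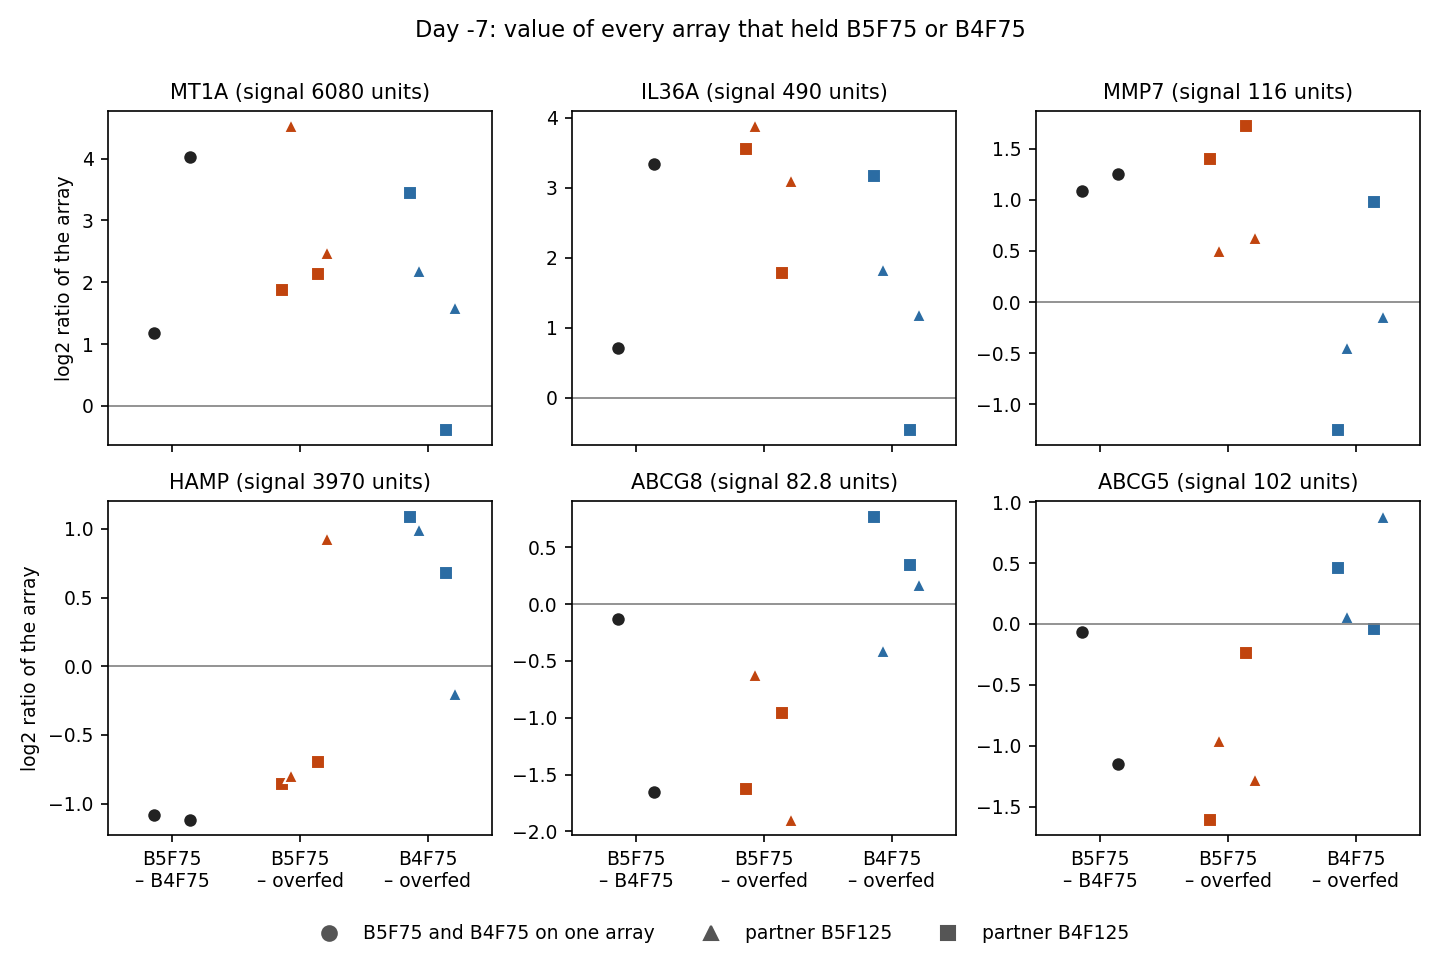
Log2 ratios (y axis, scaled per gene) of every day -7 array that held B5F75 or B4F75, for the 6 brightest called genes. Black circles are the 2 arrays with both groups, orange points are B5F75 over an overfed cow and blue points B4F75 over an overfed cow. Orange points tend to lie higher than blue points but overlap them for MT1A, IL36A and MMP7, and lie below them without overlap for ABCG5 and ABCG8.

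Hepcidin was lower in B5F75. HAMP had a signal of 3970 units, and the direct arrays gave -1.08 and -1.12. B5F75 cows were at -0.86 and -0.69 against B4F125 and at -0.80 and 0.93 against B5F125, and B4F75 cows at 1.09 and 0.68 against B4F125 and at 0.99 and -0.20 against B5F125. A single array of B5F75, with B5F125, lay among the B4F75 values, and the other 3 arrays of B5F75 with overfed cows lay below every one of B4F75. The difference was -1.05 ± 0.33, or 2.07-fold lower. It was -1.32 to -0.95 with 1 array left out and still called in 3 of 12 such fits, those without the second array of B5F125 with B4F75, of B5F125 with B4F125 or of B5F75 with B5F125.

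HAMP was the only one of 20 measured iron genes that was called, and 8 of the 20 were above 0, with a median of -0.04. ID1, a target of the BMP signal that also drives hepcidin, was at -0.73 ± 0.27. The ligand BMP6 (-0.18 ± 0.36), transferrin (TF, -0.07 ± 0.20), ferritin heavy chain (FTH1, -0.04 ± 0.15) and the transferrin receptor TFR2 (-0.03 ± 0.24) were within about 1 SE of 0. Hepcidin is also raised by inflammation, and the acute phase genes are given below.

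Both subunits of the biliary sterol transporter were lower in B5F75. For ABCG5 (signal 102 units) the direct arrays gave -0.067 and -1.15, B5F75 cows were at -1.61, -0.24, -0.96 and -1.28 against overfed cows, and B4F75 cows at 0.46, -0.041, 0.058 and 0.88. For ABCG8 (82.8 units) the direct arrays gave -0.13 and -1.65, B5F75 cows were at -1.63, -0.96, -0.62 and -1.90, and B4F75 cows at 0.77, 0.35, -0.42 and 0.17. For neither gene did the arrays of B5F75 with overfed cows overlap those of B4F75, while 1 direct array was near 0 for each. Of the 17 genes named from those called on 12 arrays, 6 had no such overlap (also CHORDC1, CIDEA, CEP170 and PIGS). The choice of called genes favours this separation, and its share over all genes was not computed. The differences were -0.99 ± 0.27 for ABCG5 and -1.19 ± 0.33 for ABCG8. The ABCG5 call was lost without the second direct array (-0.91), the first of B4F75 with B4F125 (-0.94) or the second of B5F75 with B5F125 (-0.92). The ABCG8 call was lost without the second direct array (-1.05), either array of B4F75 with B4F125 (-1.04 and -1.15) or the first of B5F75 with B4F125 (-1.08). The 2 genes lie side by side and are known to share a promoter region, so they are not independent items.

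No other of the 19 measured genes of bile acid synthesis and transport was called, and 13 of the 19 were below 0 (median -0.07). CYP7A1, the rate-limiting enzyme of bile acid synthesis, was at 0.69 ± 0.46, CYP8B1 at 0.06 ± 0.17 and CYP27A1 at 0.02 ± 0.16. ABCB11, the bile salt export pump, was at -0.19 ± 0.28. OSTBETA, a subunit of the basolateral bile acid exporter, was at -0.73 ± 0.32.

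A further 11 symbols named here were called on all 12 arrays at signals under 60 units. CHORDC1, a cochaperone of HSP90, had the smallest spread. The direct arrays gave 0.81 and 0.62, B5F75 cows were above overfed cows by 0.64, 0.39, 0.47 and 0.27, and B4F75 cows were at -0.19, 0.045, -0.25 and -0.040. These arrays did not overlap, and the difference was 0.63 ± 0.13 (29.4 units), called in 12 of 12 fits with an array left out. METRN, a secreted neurotrophic factor, had the smallest p of these genes, with 1.16 and 0.63 on the direct arrays and a difference of 1.04 ± 0.21, at a signal of only 9.3 units. GSTA5, a glutathione S-transferase, gave 2.35 and 2.60 on the direct arrays and a difference of 1.45 ± 0.42. Its indirect routes were lower, at 0.69 through B4F125 and 0.16 through B5F125. The GSTA5 difference was 0.88 without the second direct array, and its call was lost in 4 of 12 fits with an array left out, also without the first direct array (1.26), the first of B5F125 with B4F75 (1.43) or the second of B5F75 with B4F125 (1.41).

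CIDEA, a lipid droplet protein that promotes droplet growth, was called higher by the mean of its 4 probes (0.63 ± 0.16). Its probes disagreed, with 1.19 and 1.37 for a dim pair (about 51 units) and -0.041 and -0.004 for the others. The brightest probe, at 787 units, gave -0.041, so the direction of CIDEA turned with the probe. NCS1, a neuronal calcium sensor (0.87 ± 0.21), FNDC8 (0.70 ± 0.21) and the trophoblast Kunitz domain protein TKDP4 (0.64 ± 0.19) were higher at signals of 9.65, 4.39 and 2.96 units, and TKDP4 turned to -0.14 with its brightest probe. With an array left out, FNDC8 was called in 5 of 12 fits (0.60 to 0.77) and TKDP4 in 4 of 12 (0.57 to 0.72), while NCS1 was called in all 12. The direct arrays of NCS1 gave 1.29 and -0.014, however. Its brighter probe (16.3 units) gave 0.39 ± 0.42 and its dimmer one 1.28 ± 0.51. CIDEA lost its call without the second direct array (0.50) or the first of B4F75 with B4F125 (0.58).

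Among the genes called lower, CLEC7A and KLRK1 encode receptors of immune cells. CLEC7A (dectin-1, a receptor of myeloid cells for fungal glucans) gave -0.44 and -0.96 on the direct arrays and a difference of -0.74 ± 0.22 (25.3 units), with both probes lower. It was called in 6 of 12 fits with an array left out (-0.89 to -0.61). KLRK1, the NKG2D receptor of natural killer and T cells, was at -0.75 ± 0.19 (6.95 units), and its probes at -1.12 and -0.33. Its call was lost without the first direct array (-0.59). CEP170, a centrosomal protein, was at -0.80 ± 0.18 and PIGS, a subunit of the GPI transamidase, at -0.72 ± 0.23, and for both the arrays of B5F75 with overfed cows did not overlap those of B4F75. CEP170 was called in 12 of 12 fits with an array left out but PIGS in only 2 of 12 (-0.82 to -0.62). The brighter CEP170 probe (27.5 units) gave -0.45 ± 0.22, and the dimmer one (4.47 units, on 8 arrays) -1.61 ± 0.25. The brightest PIGS probe, at 219 units, gave -0.30.

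Among called genes, the largest differences belonged to genes with very low recovered signals. MAEL, a germline gene of the piRNA pathway, was at 2.86 ± 0.73 on 11 arrays, the epoxide hydrolase EPHX4 at 2.67 ± 0.56 on 8 and the interferon lambda receptor IL28RA at 1.93 ± 0.32 on 8. OR6K3, an olfactory receptor, was at -3.54 ± 0.45 on 8 arrays, interferon gamma (IFNG) at -1.90 ± 0.50 on 10 and TICRR, a replication factor, at -1.79 ± 0.30 on 9. Their signals were 2.00 to 3.15 units. Unless a common factor was lost, a change of 1 unit there moves the ratio by a large factor.

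Calls were most frequent among the dimmest genes. At 5 units or less 0.919% of 2828 genes were called and the median SE was 0.416, whereas at over 100 to 1000 units 0.0784% of 3825 genes were called and the median SE was 0.186, and over 1000 units 0.145% of 1378 genes (2 genes, MT1A and HAMP). In all, 26 of the 47 called genes lay at 5 units or less, 21 were measured on all 12 arrays and 5 had a signal of 100 units or more. With only spots of 100 units or more kept, 11 of 6861 genes were called (0.16%, 7 higher and 4 lower). These included MT1A, IL36A, MMP7, HAMP and ABCG5, and also APCS (-1.38), SHISA5 (0.67), PKIG (0.61), HPS4 (0.59) and REC8 (-2.06).

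**Figure D2:**
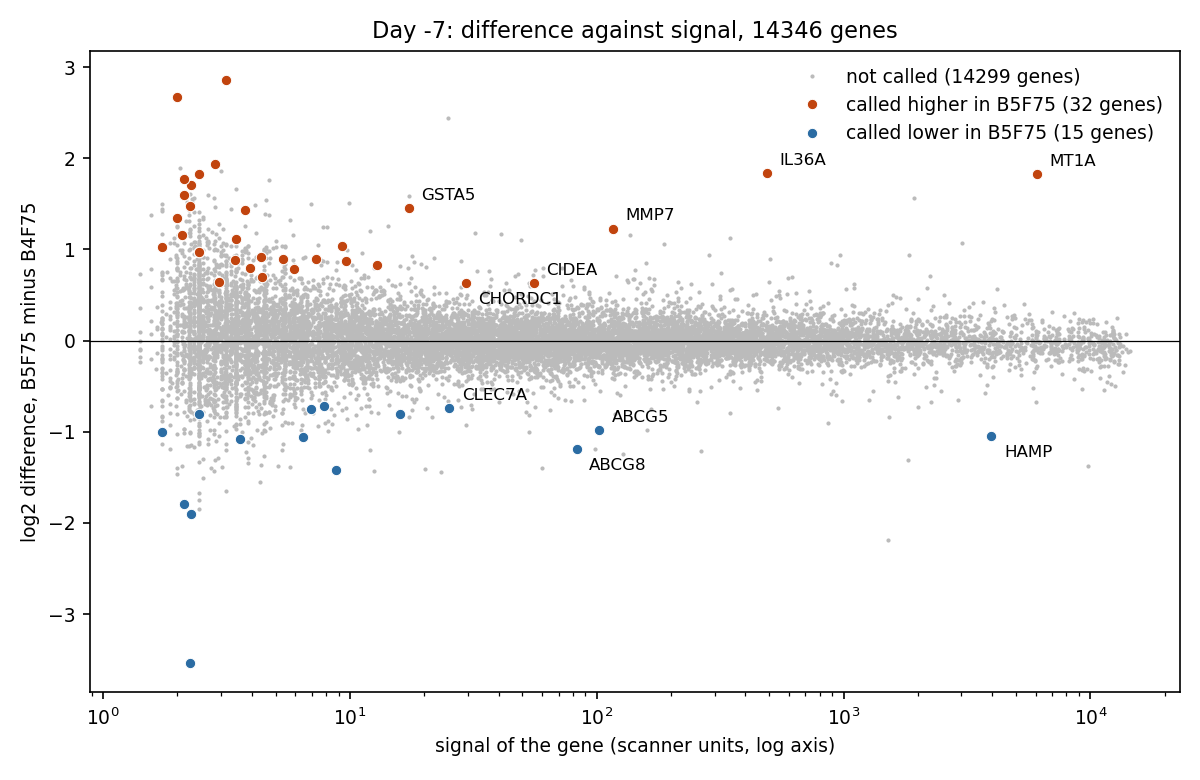
Fitted log2 difference, B5F75 minus B4F75, at day -7 (y axis) against the recovered signal of the gene in scanner units (x axis, log scale) for 14346 genes. Orange points are the 32 genes called higher and blue points the 15 called lower. Most called genes lie at the dim end, where the whole cloud is widest.

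Genes of lipid metabolism gave no called difference apart from CIDEA. Of 21 genes of mitochondrial fatty acid oxidation 11 were above 0 (median 0.006), with the carnitine palmitoyltransferase CPT1A at 0.23. In a list of 21 genes, made of PPARA (the receptor that switches on fasting genes), its targets and its partners, 9 were above 0 (median -0.03). ANGPTL4, a lipoprotein lipase inhibitor, was at 0.83 ± 0.36 and the fasting hormone FGF21 at 0.80 ± 0.84. Of 18 genes of fatty acid synthesis 11 were above 0 (median 0.09), with ATP citrate lyase (ACLY) at 0.64 ± 0.31, stearoyl-CoA desaturase (SCD) at 0.13 ± 0.36, fatty acid synthase (FASN) at 0.10 ± 0.20 and the lipogenic regulator THRSP at -1.19 ± 0.71. The fatty acid binding proteins pointed opposite ways, with FABP1, the liver form, at -0.53 ± 0.23 and FABP4, the adipocyte form, at 1.58 ± 0.69 (17.3 units). Of 25 genes of lipoproteins 20 were below 0 (median -0.08), APOB and MTTP among them by less than 0.1.

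Cholesterol synthesis leaned upward without a call. Of 25 measured genes 20 were above 0, with a median of 0.17 against -0.002 over all genes tested. HMGCS1, which condenses acetoacetyl-CoA to HMG-CoA, was at 0.51 ± 0.26, the reductase DHCR7 at 0.50 ± 0.32 and squalene epoxidase (SQLE) at 0.40 ± 0.29. The median was 0.10 on the 2 direct arrays, 0.32 through B4F125 and 0.008 through B5F125, and 0.10 to 0.23 with an array left out. In the single genes the last route lay on the other side of 0, for example -0.44 for HMGCS1 against 0.84 on the direct arrays.

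For glucose and amino acids, 13 of 24 gluconeogenic genes were above 0 (median 0.03), with PCK1 at 0.19, pyruvate carboxylase (PC) at 0.15 and glucose-6-phosphatase (G6PC) at -0.67 ± 0.32. FBP2, a fructose bisphosphatase, was at -1.31 ± 0.69 and below 0 by all 3 routes. GNMT, which disposes of excess methyl groups as sarcosine, was at 1.13 ± 0.41 and above 0 by all 3 routes (0.79, 1.11 and 1.82). FBP2 and GNMT were chosen after their values were seen and the fit combines the 3 routes, so routes of 1 sign were favoured in advance. In the growth hormone axis 13 of 27 genes were above 0, with IGF1 at -0.51 ± 0.30 and the growth hormone receptor GHR at -0.51 ± 0.22 (4.17 units). None of these genes was called.

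Chaperones leaned upward. Of 25 genes of ER folding and the unfolded protein response 23 were above 0 (median 0.22), among them the ER chaperone HSPA5 (0.85 ± 0.59), DNAJB11 (0.74 ± 0.57) and the stress regulator DDIT3 (0.46 ± 0.35), and none was called. The 2 direct arrays did not carry it, with a median of -0.06 against 0.95 through B4F125 and 0.22 through B5F125. With an array left out the median was 0.15 to 0.44. Of 19 cytosolic heat shock genes 13 were above 0 (median 0.23, or 0.15 to 0.37 with an array left out) and 1, CHORDC1, was called. HSPA1A, the inducible HSP70, was at 0.68 ± 0.33.

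Cytosolic ribosomal proteins leaned the other way by a small amount, with 58 of 69 genes below 0 and a median of -0.11, lying below 0 by each of the 3 routes (-0.08, -0.02 and -0.29). RPS15 had the smallest p, at -0.34 ± 0.13. Of 58 nuclear-encoded subunits of oxidative phosphorylation 43 were below 0 (median -0.05), and the route through B4F125 was above 0 (0.06). With an array left out the ribosomal median was -0.17 to -0.042, and the fit on all 48 arrays turned it to 0.039. The genes of each list were measured on the same 12 arrays and are not replicates.

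Genes of inflammation pointed both ways. Of 25 acute phase genes 11 were above 0 (median -0.01). The pentraxin APCS, at 9820 units, was at -1.38 ± 0.44 (just outside the call on p) and below 0 by all 3 routes (-1.04, -2.67 and -0.76). It was chosen after its values were seen, which favours routes of 1 sign. Haptoglobin (HP) was at 1.56 ± 0.90, with 3.42 and -0.45 on the direct arrays, and SAA3 and CRP were at 0.02 and -0.04. Of 41 interferon response genes 26 were above 0 (median 0.09), with RSAD2, an antiviral enzyme, at 0.44 ± 0.15, and of 41 complement and coagulation genes 24 were above 0 (median 0.02). In a list of 27 genes of drug and steroid metabolism, mainly cytochromes P450, 19 were below 0 (median -0.06). In a list of 20 genes, mainly glutathione S-transferases and sulfotransferases, 14 were below 0 (median -0.18), with GSTA5 the one called gene.

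Altogether, 6 of 935 measured genes in the 38 pathway lists were called (0.642%), namely CIDEA, GSTA5 and CHORDC1 higher and ABCG5, ABCG8 and HAMP lower. The share among all genes tested was 0.328%.

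**Figure D3:**
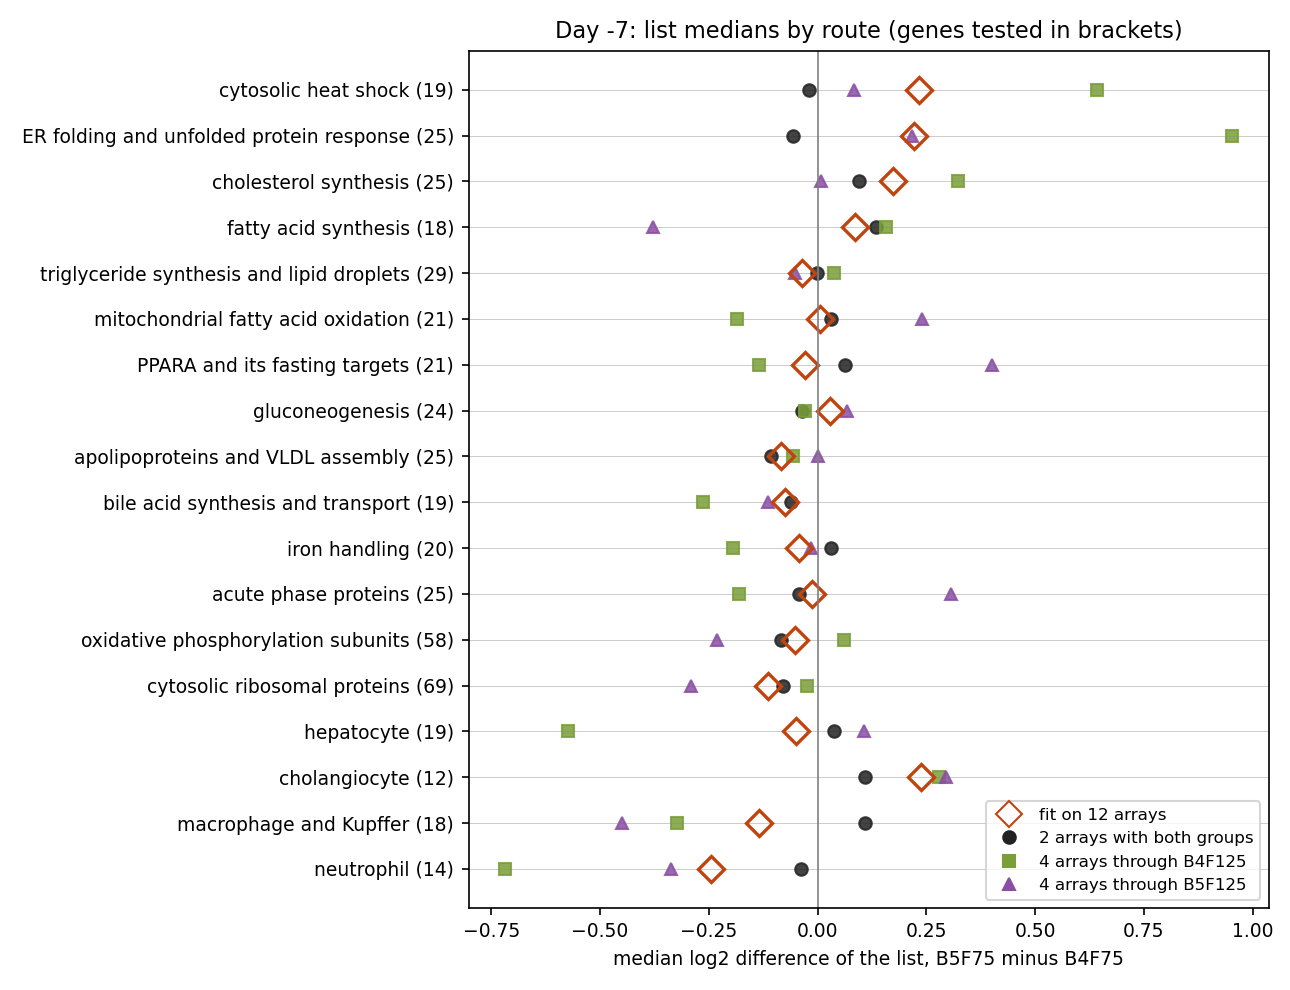
Median log2 difference, B5F75 minus B4F75, of the genes of 18 lists (rows, genes tested in brackets; x axis). Open diamonds are the fit on 12 arrays, circles the 2 arrays with both groups, squares the 4 arrays through B4F125 and triangles the 4 arrays through B5F125. For ER folding and heat shock the circles lie near 0 and the squares at 0.95 and 0.64.

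Defining hepatocyte genes were bright on these arrays, with a median of 9910 units over 19 markers, ALB at 10600 and TTR at 12900. Their median difference between B5F75 and B4F75 was small (-0.05, 6 of 19 above 0, ALB 0.04 ± 0.30), although their median through B4F125 was -0.57. Of 18 macrophage and Kupffer cell markers 17 were below 0 (median -0.13), with CD163 at -0.10 ± 0.19 and CD68 at -0.14 ± 0.27, while their median on the direct arrays was 0.11. With an array left out it was -0.26 to -0.065. Of 14 neutrophil markers 11 were below 0 (median -0.25, or -0.39 to -0.14 with an array left out), and of 12 cholangiocyte markers 10 were above 0 (median 0.24, or 0.15 to 0.34), including EPCAM at 1.06 ± 0.62 and KRT19 at 0.04 ± 0.15. None of these was called, and their part in the differences of the immune receptor genes CLEC7A and KLRK1 or of MMP7 was not tested. Markers of tissues that a biopsy passes through were dim, with medians of 3.10 units for skeletal muscle, 7.06 for keratinocytes and 13.6 for adipocytes. Of 173 measured markers in 12 lists 2 were called (1.16%), CIDEA among the adipocyte markers and KLRK1 among those of T and natural killer cells.

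The 2 arrays with both groups were set against the indirect routes, as these use other cows. Over 12231 genes with all 10 arrays of the restricted groups, the direct and the indirect estimate had Pearson's r of -0.043 and Spearman's rho of -0.068, across genes that are not independent, and the same sign in 5784 genes (47.3%). At signals of 100 units or more r was -0.076 and 45% of 5212 genes had the same sign. Across genes, the difference on the direct arrays thus did not recur on the indirect ones. Without the 2 direct arrays, MMP7 (1.28), CHORDC1 (0.55), IL36A (1.65), MT1A (1.05) and HAMP (-0.995) were no longer called, while ABCG5 (-1.36) and ABCG8 (-1.49) were. For the 17 genes named from those called on 12 arrays the 3 routes had 1 sign throughout, which the choice of called genes favours. Over all 12231 genes the 3 routes had 1 sign in 2731.

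Overfed cows gave the same comparison of condition at a higher plane of feeding. Between B5F125 and B4F125, 138 of the 14346 genes were called (0.962%, 77 higher and 61 lower), with a smallest adjusted p of 0.394 (limma). The 6 bright genes named above were close to 0 there. MT1A was at -0.23 ± 0.55, IL36A at 0.02 ± 0.54 and MMP7 at 0.20 ± 0.29. HAMP was at 0.03 ± 0.33, ABCG5 at 0.08 ± 0.27 and ABCG8 at -0.02 ± 0.33. The difference between the restricted and the overfed contrast was 2.05 ± 0.78 for MT1A, 1.82 ± 0.77 for IL36A, 1.02 ± 0.41 for MMP7, -1.08 ± 0.46 for HAMP, -1.06 ± 0.39 for ABCG5 and -1.17 ± 0.47 for ABCG8. None of these passed the call for the interaction. The genes were picked for their restricted difference, which enters the interaction, so the choice favours such a gap. By that test 98 genes were called (0.683%, 53 higher at 0.369% and 45 lower at 0.314%), and every adjusted p was 0.999 or more.

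CLEC7A was the clearest of the named genes in this respect. It was lower with BCS 5 in restricted cows (-0.74) and higher in overfed cows (1.11), both past the call, a difference of -1.85 ± 0.32 (adjusted p = 0.999, limma). The macrophage markers had a median of -0.13 in the restricted and 0.28 in the overfed contrast, and their part in the CLEC7A value was not tested. GSTA5 (1.45 and 1.16) and CIDEA (0.63 and 0.59) were higher with BCS 5 at both planes of feeding, CIDEA with the disagreement of its probes given above.

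**Figure D4:**
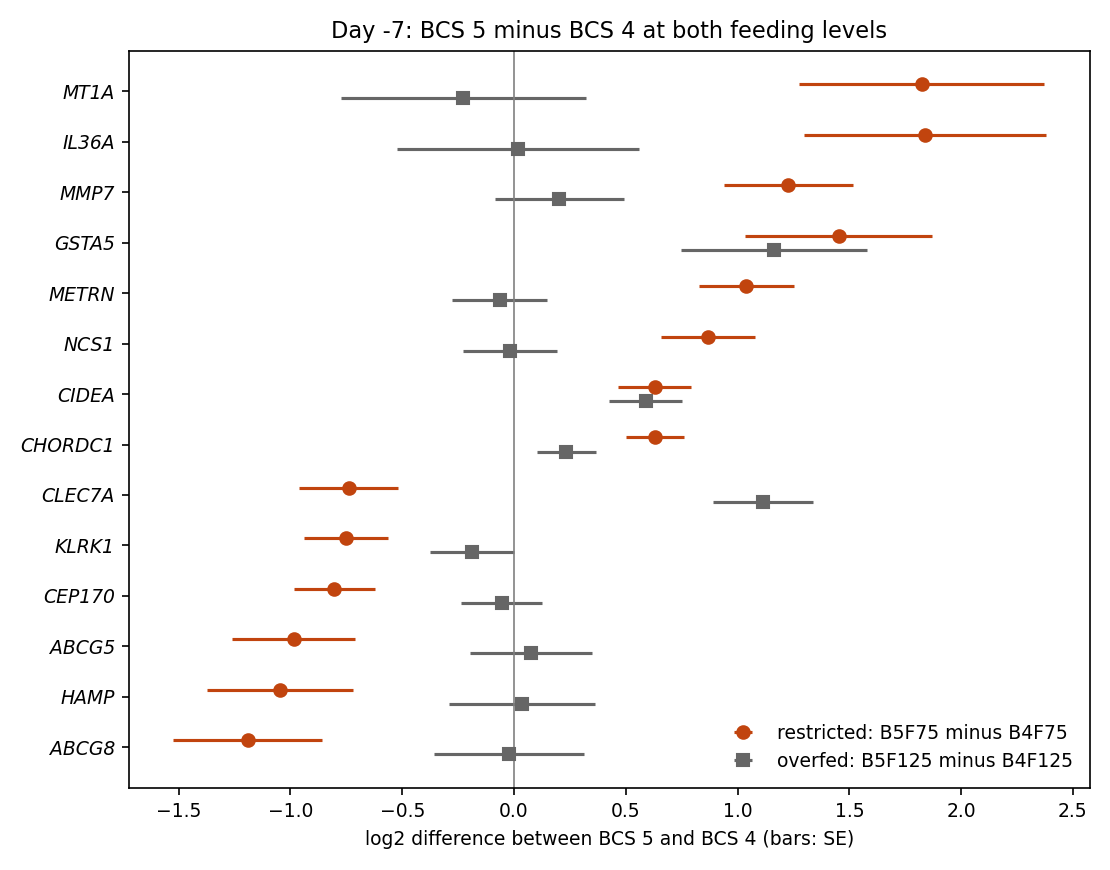
Log2 difference between BCS 5 and BCS 4 at day -7 (x axis, bars SE) for 14 genes picked from those called in restricted cows. Restricted cows are orange circles (B5F75 minus B4F75) and overfed cows grey squares (B5F125 minus B4F125). Squares lie near 0 for MT1A, IL36A, MMP7, HAMP, ABCG5 and ABCG8, beside the circles for GSTA5 and CIDEA, and on the other side of 0 for CLEC7A.

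The same cows, in the same pairs, were on the arrays of days 7 and 28 after calving. A lasting difference between the cows of a pair would recur, so these days are not independent of day -7. At day 7, 154 of 13898 genes were called between B5F75 and B4F75 (1.11%, 41 higher and 113 lower), and at day 28, 61 of 14628 (0.417%), none past adjustment in limma. Of the 47 genes called at day -7, 31 were tested at day 7, where 19 had the same sign and 1 was called, WDR87, with the opposite sign (0.88 at day -7 and -1.03 at day 7). At day 28, 37 were tested, 26 had the same sign and none was called. The share of all genes with the same sign on both days was not computed.

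MT1A was at 1.82 at day -7, 0.30 ± 0.95 at day 7 and 0.66 ± 0.84 at day 28, and IL36A at 1.84, 0.48 and 0.49. MMP7 kept its value at day 7 (1.23 at day -7, 1.14 ± 0.47 at day 7 and 0.41 at day 28). HAMP was at -1.05, -0.13 and 0.53 ± 0.28, and its change to day 28 was 1.57 (adjusted p = 1, limma). ABCG5 was at -0.99, 0.43 and -0.15, and its change to day 7 was 1.41. CHORDC1 had nearly the same value on each day, 0.63, 0.58 and 0.60. Over all genes the change of the condition difference was called for 111 of 13899 genes between days -7 and 7 (0.799%) and for 18 between days -7 and 28 (0.13%, 9 in either direction at 0.0648%). The changes of HAMP and ABCG5 were not among them, nor was that of MT1A to day 7 (-1.52). These counts come from a fit whose block for cow pairs did not allow for the dye swap of the pairs at day 7.

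**Figure D5:**
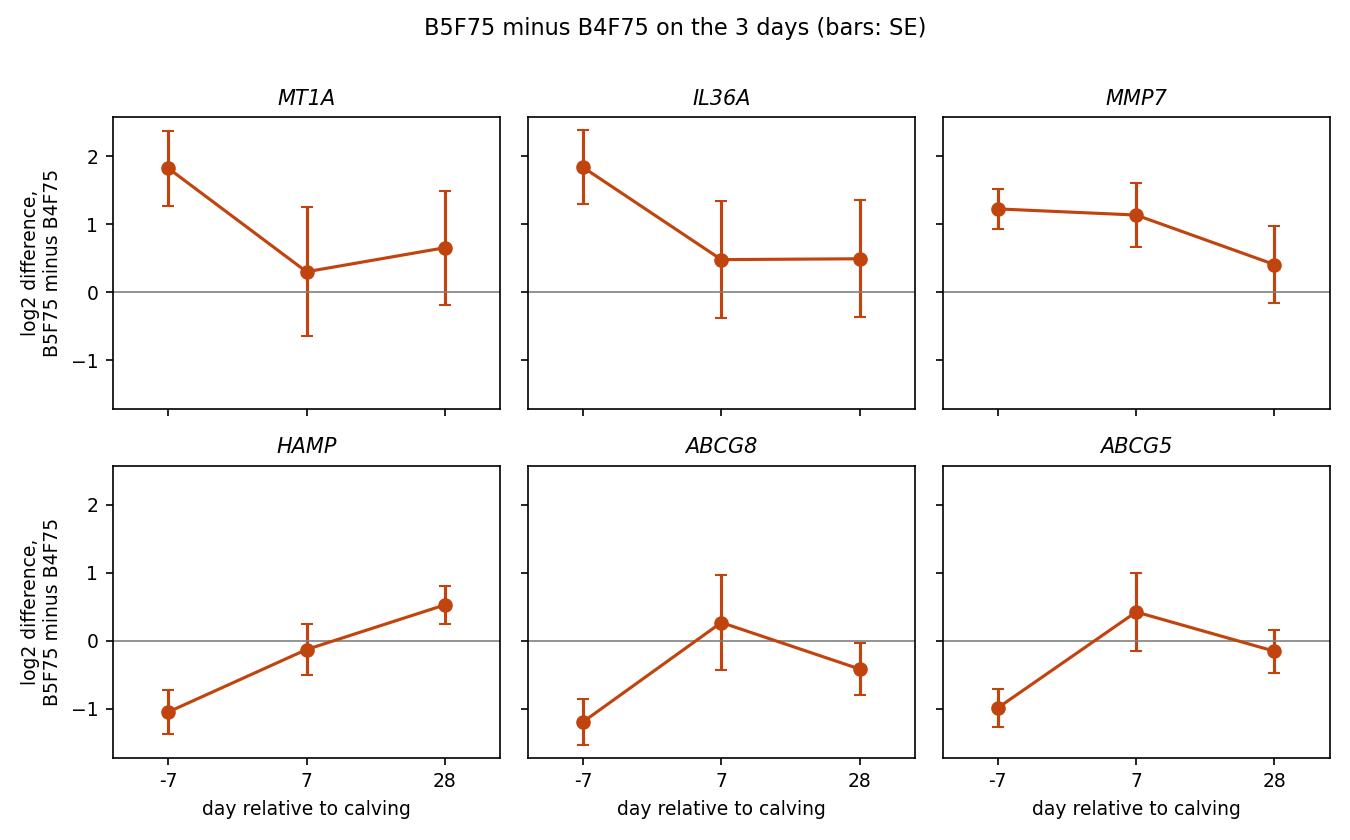
Log2 difference, B5F75 minus B4F75 (y axis, bars SE), at days -7, 7 and 28 relative to calving (x axis) for the 6 brightest called genes, each day from its own 12 arrays of the same 24 cows. The bars at days 7 and 28 reach 0 for MT1A, IL36A and ABCG5, while MMP7 is at 1.23 and 1.14 on the first 2 days.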

How the data were processed

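Values were the log2 ratios that the authors deposited for each of 43803 spots of 2-colour bovine Agilent arrays scanned and read with GenePix, with bad spots blank. The methods describe lowess normalization and centring, but array medians were not 0, so the deposited log2 values were taken as not yet centred. Both background-subtracted signals were recovered as ratios of whole numbers in lowest terms (99.04% of values within a relative tolerance of 1e-09). Any common factor of the 2 channels was lost. Gene names had lost the digit 0, and 361 were restored through RefSeq, while 295 that fitted several genes and 24 turned into dates were left out. A set of 48 value columns of an annotated table, named by slide, was not used. The files name no genome build, and no positions or sequences are given.

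Median centring was applied per array, probes of a gene were averaged, and limma 3.58.1 (R 4.3.3) fitted the treatment means with a dye term on the 12 arrays. Genes needed 8 arrays, and a call p of at most 0.01 and a fold of at least 1.5, the methods' thresholds, two-sided, with Benjamini-Hochberg adjustment over all genes. Blanks drop that array from the fit of that gene. Each replicate was a different cow. For the change between days, 36 arrays were fitted with the pair of cows as a random block (consensus correlation -0.0739). The fit was tested on simulated data first.

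Genes are named by a rule: the 10 called genes of each direction with the smallest p on all 12 arrays, the 3 with the largest difference, the 3 with the smallest interaction p, and the key and called genes of the lists, LOC names apart. Other genes, among them metallothioneins other than MT1A, APCS, ID1, GNMT and FBP2, were chosen after their values were seen. Members, lists and tests were chosen with earlier results of these data known. Alternatives covered centring, scaling, the dye term, probes, the minimum of arrays, moderation, array weights, the direct arrays, all 48 arrays and each array left out. Minimum signals and lowess were added after seeing the data. The number of arrays limits the precision.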

Additional observations from a re-analysis of the deposited data

Results flagged for a closer look

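In 11 of the named genes (CLEC12A chosen after its values were seen) the interaction of BCS and feeding at day -7 passed p of 0.01 and 1.5-fold in limma. Every adjusted p was 0.999. Over all genes tested 98 passed (0.683%). The choice favoured the rest of the 11, which were named for the smallest interaction p or for a restricted difference that enters the interaction. Values below are BCS 5 minus BCS 4. CLEC7A stood at -0.74 in restricted and 1.11 in overfed cows (interaction -1.85, signal 25.3 units) and CLEC12A, another C-type lectin receptor of myeloid cells, at -0.55 and 0.30 (interaction -0.85, 103 units). METRN stood at 1.04 and -0.064 (interaction 1.10, 9.3 units). The others lay under 5 units. CHGA stood at 0.92 and -0.96 (interaction 1.88), MCF2L2 at 0.98 and -1.21 (2.19), MGC151921 at 0.41 and -2.60 (3.00), IL28RA at 1.93 and -0.41 (2.34) and MAEL at 2.86 and -0.94 (3.79). OR6K3 stood at -3.54 and -0.97 (-2.57), IFNG at -1.90 and 1.67 (-3.57) and TICRR at -1.79 and -0.12 (-1.67). A further 4 genes called in restricted cows but outside the naming rule also passed, among them DIXDC1 (interaction 2.46, 2.45 units) and FBXO48 (1.502, 7.31 units), the others having LOC names.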

How the results depend on the processing

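Against 47 called genes, scaling the arrays to 1 spread gave 95 (65 higher and 30 lower), probes on their own 115 probes, genes on all 12 arrays 28 (14 and 14), no minimum of arrays 88, no moderation 18, array weights 121, and the 10 arrays without the direct ones 140 (61 and 79), of which 14 were among the 47. Spots of at least 20 units gave 16 and of at least 100 units 11. Adjusted p under 0.05 gave 0 in every comparison. Leaving out 1 array gave 53 to 108, the highest without the second direct array. The count also passed 1.5 times the main one without the first direct array (79), the first of B5F125 with B4F75 (75), the second of B5F125 with B4F125 (71) or the second of B5F75 with B5F125 (74). Values as deposited gave 58 (50 higher and 8 lower), the median of all genes being 0.07. CIDEA turned to -0.041 and TKDP4 to -0.14 with the brightest probe, CIDEA also at 100 units and TKDP4 at 20. For B5F125 minus B4F125 (138), no moderation gave 62, bright spots 29 and leaving out 1 array 133 to 243, the highest without the first array of B5F125 with B4F125. For the interaction (98), genes on all arrays gave 61, no moderation 50, bright spots 17 and leaving out 1 array 86 to 153, the highest without that same array. Bright spots gave 37 (29 higher and 8 lower) at day 7 and 27 at day 28, where values as deposited gave 78 (11 higher and 67 lower; median of all genes -0.12). Removing the dye term (38), lowess (52), all 48 arrays (53) and names as written (49) stayed within 1.5 times of 47, but the genes changed: 30, 42, 12 and 46 of the 47 were among those calls. The causes were not tested. No paired analysis was possible because no cow was on more than 1 of these arrays. Depth limits dim genes most, since 33.6% of values had a recovered weaker channel of 10 units or less. Lost common factors can raise that share.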

Other observations

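Of 10 genes of the mitochondrial genome, chosen after their values were seen and so given without a test as a group, all were below 0 in B5F75 minus B4F75 at day -7. Cytochrome b (CYTB) was at -0.47 ± 0.15, COX3 at -0.45, ATP6 at -0.42, ND4 at -0.54, ND5 at -0.52, ND2 at -0.62, ND4L at -0.48, ND1 at -0.31, ND6 at -0.16 and ATP8 at -0.033. All come from 1 genome and transcripts of long shared precursors, so they are not independent, and none was called.

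PRAP1, a proline-rich acidic protein of epithelia, had one of the larger differences among bright genes without a call, at -2.19 ± 0.89 (1520 units).

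On the 4 arrays that paired a day 7 with a day -7 sample, read with Cy5 over Cy3, HP was lower at day 7 on 3 of 4 (-4.69 to 0.50), IGF1 higher on 4 of 4 (0.70 to 1.87) and PC lower on 3 of 4 (-1.77 to 0.29). Known changes around calving run the other way for these genes, as the report says where it gives the direction of the ratios. Apart from these values, the between-day arrays entered no difference of the report other than the alternative with all 48 arrays. They did enter the signals and the signal filters, which use medians over all 48 arrays.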
